A study of Mus musculus with 6 samples.

Results

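Genes of synaptic vesicle release and recycling were followed in the injured mouse spinal cord. The 43 genes were taken by symbol from a list that covers synaptotagmins, synapsins, SNARE proteins and their partners, active zone scaffolds, Rab3 GTPases, vesicle membrane proteins and endocytic proteins. All 43 were found among the 37475 genes of the deposited table, and all 43 passed the filter on low counts. The animals were wild-type mice whose cord was bruised at T10 with an impactor (a contusion), and the tissue was taken on day 3 after injury. The SCI+Syr group (n = 3) received syringin, a plant phenylpropanoid glucoside, at 50 mg/kg by daily intraperitoneal injection after the contusion. The SCI group (n = 3) had the same contusion and received phosphate-buffered saline (PBS) in the same way. Both groups were injured, and uninjured cord was not analysed here. Sex, age and strain were not given in the sources used here.

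A nerve terminal stores transmitter in synaptic vesicles that synapsins hold in clusters. At the active zone, scaffold and priming proteins dock a vesicle and ready it. The vesicle SNARE Vamp then zips with Snap25 and syntaxin of the plasma membrane, and synaptotagmin triggers fusion when calcium enters. The ATPase Nsf takes the SNARE complex apart again, and dynamin, endophilin, amphiphysin and synaptojanin bring the membrane back. In the spinal cord these genes are carried by interneurons and motor neurons and by the axons that reach them, while RNA in the tissue comes mainly from cell bodies that lie in it.

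Library totals ran from 65579117 to 78843034 estimated counts, with the deepest and the shallowest library both in the SCI+Syr group. Multiples of 4 were over-represented among small counts (8 was 1.34 times as frequent as its neighbours), so counting error may be larger than the totals imply. Neuronal identity of the tissue was checked with 12 general neuronal markers, all of which were detected. Their summed level was 3234, 2238 and 2973 CPM (counts scaled to a common library size) in the syringin libraries 1 to 3, against 5033, 3810.0 and 4619 CPM in the PBS libraries 1 to 3. Transcripts of sensory ganglion neurons, which lie outside the cord, divided the libraries in another way. The 10 markers of these neurons, from Scn10a to Mrgpra3, summed to 203, 9.19 and 90.2 CPM in the syringin libraries, against 235 CPM in PBS library 1 and at most 25.1 CPM in PBS libraries 2 and 3. Syringin libraries 1 and 3 and PBS library 1 therefore carried ganglion transcripts, and syringin library 2 and PBS libraries 2 and 3 had few or none (Mrgprd, a defining marker, was at 0 in those 3). Sensory neurons use the same release machinery, so the fold changes of the fallen genes within each kind of library, which carry no test, are given with each group of genes. Markers of Schwann cells, the myelin cells of nerve roots, summed to 177, 340.2 and 161 CPM in the syringin libraries, against 397, 1439 and 1073 CPM in the PBS libraries.

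In the syringin group 21 of the 43 genes fell, none rose, and 22 did not pass the threshold, an adjusted p of 0.05 by edgeR's quasi-likelihood test (Benjamini-Hochberg over 22114 genes). Over all genes tested, 5.01% were called, 3.39% lower and 1.62% higher, against 48.8% lower among the 43 genes. The 43 genes were chosen with earlier results of these data known, so this difference is a description. The median log2 fold change of the 43 genes was -0.70, against 0.01 over all genes tested. The fallen genes came from every role, from the synaptotagmin Syt2 to the endophilin gene Sh3gl2, and ended at 34.7% to 74.8% of their mean PBS level. At an unadjusted p under 0.05, 11 further genes were lower, which made 32 of the 43, beside 12.1% of all genes tested, and none was higher. No tool tried called a member higher. In 30 of the 43 genes all 3 syringin values lay below all 3 PBS values, as they did in 15.3% of all genes tested. Log2 fold changes are syringin minus PBS and are given ± standard error, with n = 3 in each group. CPM gives a gene's share of the counts of a library, not its amount of RNA in the tissue. In bulk tissue, fewer neurons and less RNA per neuron cannot be told apart from such a share.

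The count of fallen genes depended on single libraries. With syringin library 1, 2 or 3 left out, edgeR called 30, 16 and 8 of the 43 genes lower, beside 4.97%, 1.42% and 0.942% of all genes tested in those fits. With PBS library 1 or 2 left out it called 5 and 7, beside 0.954% and 0.723% of all genes. Without PBS library 3 no gene at all passed edgeR's adjusted threshold (3449 of 22804 genes, 30 of the 43 among them, had an unadjusted p under 0.05), limma-voom called 0, and DESeq2 called 25 of the 43 lower, beside 4.04% of all genes. Fold changes of the 21 fallen genes shifted by 0.22 on the log2 scale at the largest over the 6 fits. Without PBS library 3 their median was -1.003, against -1.04 over all 6 libraries. All 21 stayed negative, but their groups did not overlap over all 6 libraries, so the sign could hardly change.

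Of the fallen genes, Syt2, Vamp1, Unc13c and Sh3gl2 passed in 5 of the 6 edgeR fits with 1 library left out, Syn2 and Rab3a in 4, and Syt3, Syn1 and Cplx1 in 3. Snap25, Cplx2, Rims1, Rab3c, Syp, Dnm1 and Amph passed in 2, and Syt13, Nsf, Pclo, Sv2b and Syngr1 in 1. The fold change ran from -1.63 to -1.46 for Syt2 over these fits, from -1.39 to -1.15 for Vamp1, from -1.20 to -1.07 for Sh3gl2 and from -1.11 to -0.72 for Snap25. Over all 6 libraries DESeq2 called 31 of the 43 lower, beside 8.13% of all genes. With each library adjusted for length and GC content of the transcripts, edgeR called 19 of the 43 genes lower, beside 2.8% of all genes, and over all genes 502 were higher and 619 lower, against 359 and 749 without it.

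**Figure D1:**
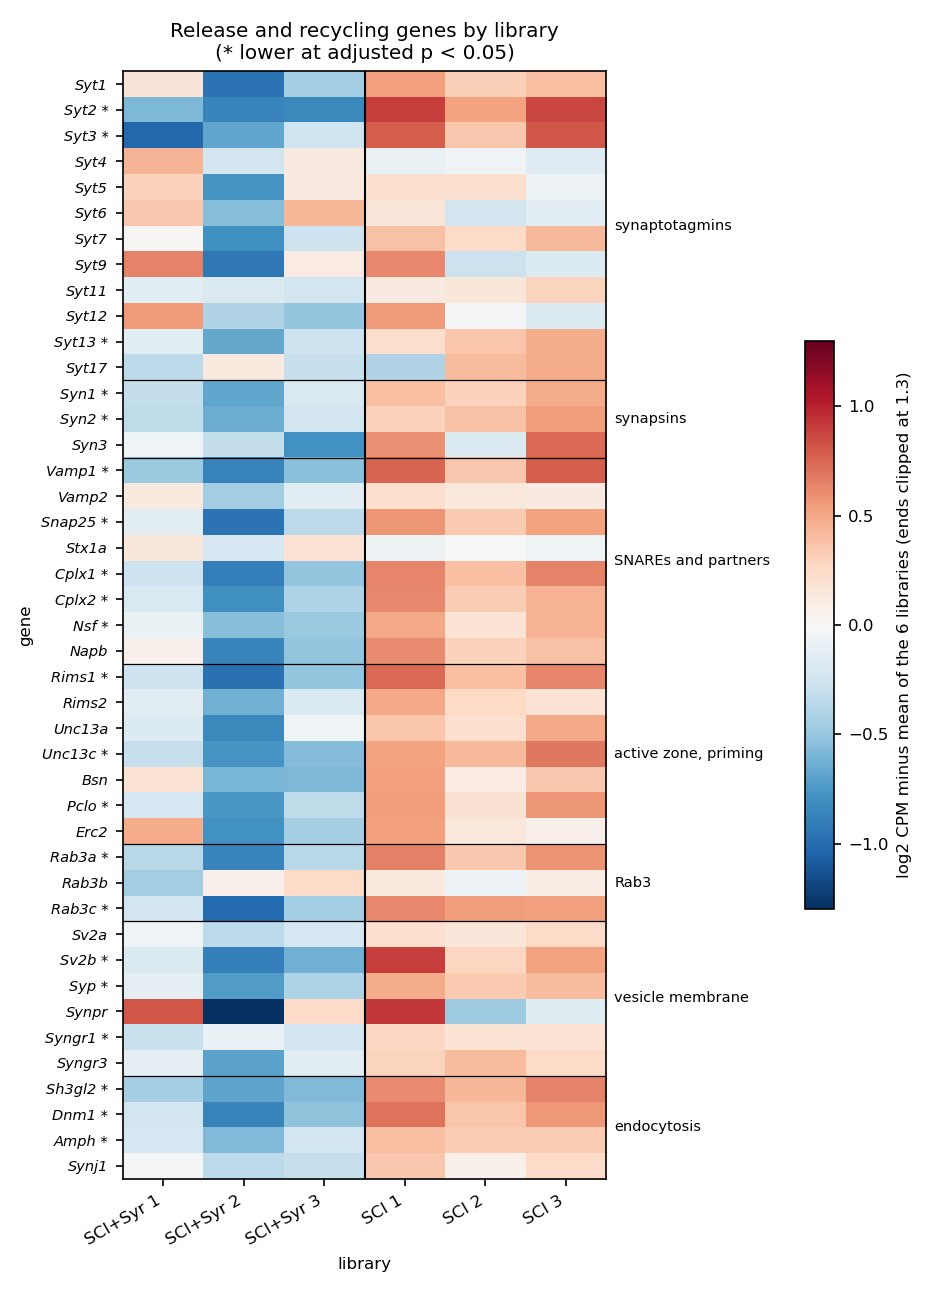
Level of each of the 43 genes (rows, grouped by role) in the 3 SCI+Syr and 3 SCI libraries (columns), as log2 CPM minus the gene's mean over the 6 libraries, with red above and blue below that mean. The 21 genes marked with an asterisk are pale to deep blue in the SCI+Syr columns and red in the SCI columns, and SCI+Syr library 2 holds the lowest of the 6 values for 36 genes.

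**Figure D2:**
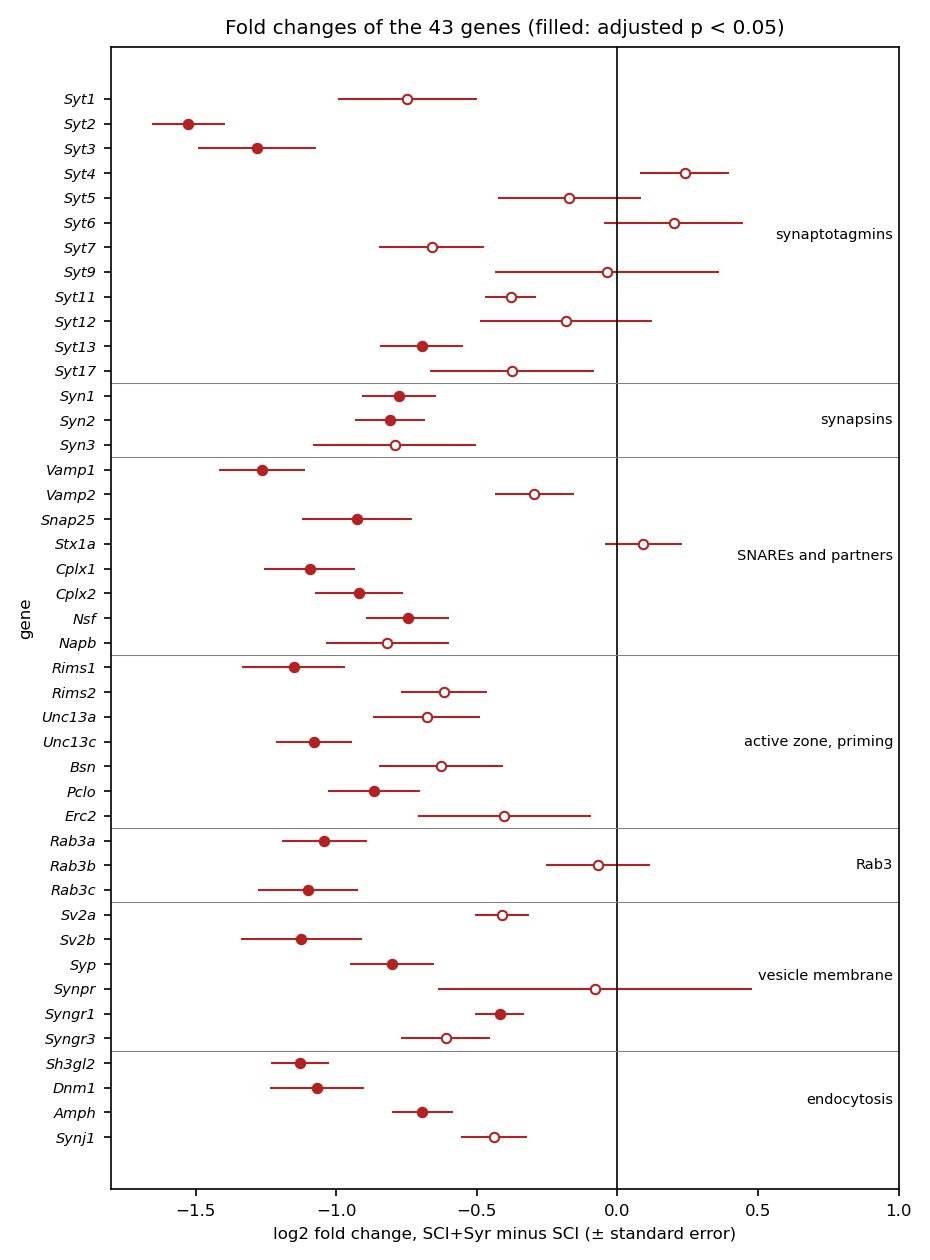
Log2 fold change of each of the 43 genes, SCI+Syr minus SCI, with its standard error (bars) and n = 3 in each group; filled points passed an adjusted p of 0.05. The filled points run from -1.53 for Syt2 to -0.42 for Syngr1, and the 3 genes right of zero, Syt4, Syt6 and Stx1a, are open.

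Among the synaptotagmins, the calcium sensors of release and their relatives, 3 of 12 fell (Syt2, Syt3 and Syt13), none rose and 9 did not pass (family median -0.38). Positions of genes are given as in the deposited table, whose genome build is uncertain. Syt2, the fast calcium sensor that predominates over Syt1 in brainstem and spinal cord (ENSMUSG00000026452, chromosome 1, 134574415 to 134690331, plus strand), had 78.9, 65.0 and 66.0 CPM in the syringin libraries, against 219.5, 169.8 and 215 CPM in the PBS libraries. Every syringin value was under the lowest PBS value by a factor of more than 2, and the spread within each group was small. Its log2 fold change was -1.53 ± 0.13 (adjusted p = 0.0101), the largest fall among the 43 genes. Within the libraries with ganglion transcripts the log2 fold change of Syt2 was -1.60, and within the others it was -1.57. Syt1, the fast sensor of forebrain synapses, had 57.5, 26.4 and 37.8 CPM in the syringin libraries, against 74.0, 63.4 and 67.0 CPM in the PBS libraries. The groups of Syt1 did not overlap, but the syringin libraries differed widely among themselves, and the fold change of -0.75 ± 0.25 missed the threshold (adjusted p = 0.121).

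Syt3, a sensor with high calcium affinity, had 10.9, 13.9 and 18.4 CPM in the syringin libraries, against 38.2, 28.2 and 38.7 CPM in the PBS libraries (-1.28 ± 0.21, adjusted p = 0.0217). Its relative Syt6 had 34.0, 18.2 and 36.0 CPM, against 29.9, 22.7 and 24.2 CPM in PBS, with overlapping groups (0.20 ± 0.25, adjusted p = 0.685). Syt13, a synaptotagmin without calcium binding, had 27.9, 19.4 and 25.5 CPM in the syringin libraries, against 35.9, 39.4 and 42.7 CPM in the PBS libraries (-0.70 ± 0.15, adjusted p = 0.0412). No value of Syt3 or Syt13 overlapped between groups. Syt3 and Syt13 had log2 fold changes of -1.38 and -0.43 within the libraries with ganglion transcripts, and of -1.27 and -1.08 within the others, in that order of genes. Syt7, the slow sensor of asynchronous release, had 54.0, 30.7 and 44.4 CPM in the syringin libraries, against 69.5, 63.4 and 71.2 CPM in the PBS libraries, without overlap, and did not pass (-0.66 ± 0.19, adjusted p = 0.0849).

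The atypical synaptotagmins Syt4 and Syt11, which do not act as calcium triggers of vesicle fusion, held the highest levels per length in the family. On the FPKM scale, which divides by transcript length, Syt11 was at 71.4 ± 3.997 FPKM in the syringin group and 94.4 ± 6.08 FPKM in the PBS group (mean ± SD, n = 3 each), and Syt4 was at 42.4 ± 10.9 FPKM in the syringin group and 36.4 ± 1.48 FPKM in the PBS group. Syt11 missed the threshold narrowly (-0.38 ± 0.09, adjusted p = 0.0539), with 421, 407 and 393 CPM in the syringin libraries, against 504, 517 and 568 CPM in the PBS libraries. Its groups did not overlap. Syt4 had 223, 139 and 178 CPM, against 153, 159 and 146 CPM in PBS, and its groups overlapped (0.24 ± 0.16, adjusted p = 0.412). As a share of the summed FPKM of the 12 synaptotagmins, Syt2 made up 5.28% ± 0.307 (SD) in the syringin group and 11.6% ± 1.22 in the PBS group, and Syt4 made up 26.4% ± 2.64 in the syringin group and 17.4% ± 1.39 in the PBS group.

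The remaining synaptotagmins showed no difference past the threshold, and their groups overlapped. Syt5 was at 14.98 ± 5.22 CPM in the syringin group and 16.9 ± 1.76 CPM in the PBS group (SD, n = 3 each), with a log2 fold change of -0.17 ± 0.25. Syt12 was at 25.4 ± 11.02 CPM in the syringin group and 28.8 ± 8.10 CPM in the PBS group (-0.18 ± 0.31). Syt17, the scarcest of the family, was at 2.38 ± 0.445 CPM in the syringin group and 3.09 ± 0.926 CPM in the PBS group (-0.37 ± 0.29). Syt9, another fast sensor, had 14.2, 4.76 and 9.73 CPM in the syringin libraries, against 14.0, 7.45 and 8.002 CPM in the PBS libraries. All 3 libraries with ganglion transcripts exceeded the other 3 for Syt9, as they did for Syt6 and for the vesicle protein gene Synpr. They did so for no other of the 43 genes, and the share over all genes tested was not computed.

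Synapsins, which tether vesicles to each other and to actin, fell in 2 of 3 cases (Syn1 and Syn2). Syn1 (ENSMUSG00000037217, chromosome X, 20726750 to 20787243, minus strand) had 88.9, 68.8 and 96.4 CPM in the syringin libraries, against 145, 136 and 154 CPM in the PBS libraries, a change of -0.78 ± 0.13 (adjusted p = 0.023). Syn2 had 60.3, 48.5 and 64.1 CPM, against 93.3, 98.9 and 111 CPM in PBS (-0.81 ± 0.12, adjusted p = 0.0189). Both genes were lower in every syringin library than in any PBS library, and by similar factors. Syn1 and Syn2 had log2 fold changes of -0.65 and -0.58 within the libraries with ganglion transcripts, and of -1.08 and -1.11 within the others, in that order of genes. Syn3, at a far lower level, had 4.93, 4.15 and 2.98 CPM in the syringin libraries, against 7.77, 4.55 and 8.57 CPM in the PBS libraries, and PBS library 2 lay within the syringin range (-0.79 ± 0.29, adjusted p = 0.152). Each synapsin gene overlaps a gene of the tissue inhibitors of metalloproteinases on the opposite strand. Timp1, in Syn1, had a log2 fold change of 0.47 ± 0.14 (adjusted p = 0.103), Timp4, in Syn2, -0.49 ± 0.20 (adjusted p = 0.197) and Timp3, in Syn3, -0.29 ± 0.14 (adjusted p = 0.242). The sources used here do not state whether counting used strand, so reads of these overlapping genes may have been shared. Of the 43 genes, 8 overlapped an opposite-strand gene whose own counts exceeded 5% of theirs, among them the fallen Syt2, Rab3a, Dnm1 and Syngr1.

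Among the SNARE proteins and their partners 5 of 8 fell (Vamp1, Snap25, Cplx1, Cplx2 and Nsf), none rose and 3 did not pass (group median -0.87). Vamp1, the vesicle SNARE of spinal and neuromuscular synapses (ENSMUSG00000030337, chromosome 6, 125192514 to 125222927, plus strand), had 228, 174 and 219 CPM in the syringin libraries, against 537, 405 and 549 CPM in the PBS libraries. Its syringin values were all well under the lowest PBS value, and the change of -1.26 ± 0.15 passed the threshold (adjusted p = 0.0115). Vamp1 and Snap25 had log2 fold changes of -1.27 and -0.82 within the libraries with ganglion transcripts, and of -1.46 and -1.39 within the others, in that order of genes. Vamp2, its close paralogue and the main vesicle SNARE of forebrain, had 187, 125 and 155 CPM in the syringin libraries, against 199, 189 and 186 CPM in the PBS libraries. Syringin library 1 reached the PBS range of Vamp2, and the change of -0.30 ± 0.14 did not pass (adjusted p = 0.254).

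Snap25, the membrane SNARE of nerve terminals, had 492, 279.7 and 428 CPM in the syringin libraries, against 811, 689.9 and 779.6 CPM in the PBS libraries. The groups were apart, and syringin library 2 was the lowest by a wide margin (-0.93 ± 0.20, adjusted p = 0.0412). With the length and GC adjustment Snap25 no longer passed, with a fold change of -0.81 (adjusted p = 0.0580). The other membrane SNARE of the list, Stx1a, had 19.0, 14.7 and 19.5 CPM in the syringin libraries, against 16.4, 17.1 and 16.5 CPM in the PBS libraries, with overlapping groups (0.09 ± 0.14, adjusted p = 0.744).

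Complexins, which bind the assembled SNARE complex and hold it ready, both fell. Cplx1 was the most abundant of the 43 genes per length, at 103 ± 24.1 FPKM in the syringin group and 224 ± 21.9 FPKM in the PBS group. It had 297, 193 and 252 CPM in the syringin libraries, against 555, 469 and 559 CPM in the PBS libraries (-1.09 ± 0.16, adjusted p = 0.0187). Cplx2 had 62.5, 41.3 and 54.5 CPM, against 111, 90.3 and 98.3 CPM in PBS (-0.92 ± 0.16, adjusted p = 0.0236). Neither complexin overlapped between the groups. Nsf, the ATPase that recycles SNAREs, had 252, 181 and 191 CPM in the syringin libraries, against 379, 303 and 364 CPM in the PBS libraries (-0.75 ± 0.15, adjusted p = 0.0353). Napb, the neuronal adaptor of Nsf, had 117, 61.9 and 78.6 CPM, against 171, 137 and 146 CPM in PBS, and missed the threshold although its groups were apart (-0.82 ± 0.22, adjusted p = 0.0741). Cplx1, Cplx2 and Nsf had log2 fold changes of -1.02, -0.92 and -0.78 within the libraries with ganglion transcripts, and of -1.41, -1.19 and -0.88 within the others, in that order of genes.

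Of 7 active zone and priming genes 3 fell (Rims1, Unc13c and Pclo) and none rose (group median -0.68). Rims1, a scaffold that links vesicles, Rab3 and calcium channels, had 20.7, 12.7 and 17.4 CPM in the syringin libraries, against 41.6, 32.7 and 38.7 CPM in the PBS libraries (-1.15 ± 0.18, adjusted p = 0.0207). Rims2 had 25.3, 18.0 and 24.4 CPM, against 39.1, 33.2 and 31.4 CPM in PBS, without overlap but short of the threshold (-0.62 ± 0.15, adjusted p = 0.0619). Unc13c, a member of the Munc13 family that opens syntaxin during priming, had 49.2, 35.7 and 40.9 CPM in the syringin libraries, against 87.2, 81.0 and 97.7 CPM in the PBS libraries (-1.08 ± 0.13, adjusted p = 0.0118). All 3 syringin values of Unc13c were near the same level, well under PBS. Unc13a, the Munc13 of most excitatory synapses, had 54.2, 34.3 and 58.6 CPM, against 78.3, 71.1 and 86.2 CPM in PBS, and did not pass (-0.68 ± 0.19, adjusted p = 0.0842).

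The giant scaffold gene Pclo had 39.0, 26.8 and 36.0 CPM in the syringin libraries, against 66.0, 51.9 and 67.8 CPM in the PBS libraries (-0.87 ± 0.16, adjusted p = 0.03). With the length and GC adjustment its fold change was -0.57 (edgeR adjusted p = 0.0671). Bsn, the companion scaffold, had 51.1, 29.7 and 30.1 CPM, against 65.2, 48.6 and 57.6 CPM in PBS, with syringin library 1 inside the PBS range (-0.63 ± 0.22, adjusted p = 0.14). Erc2, a further active zone scaffold, was at 18.9 ± 9.01 CPM in the syringin group and 25.0 ± 4.48 CPM in the PBS group with overlap (-0.40 ± 0.31, adjusted p = 0.482). Rims1, Unc13c and Pclo had log2 fold changes of -1.13, -0.95 and -0.82 within the libraries with ganglion transcripts, and of -1.49, -1.32 and -1.16 within the others, in that order of genes.

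Rab3 GTPases, which mark vesicles for docking, fell in 2 of 3 cases (Rab3a and Rab3c). Rab3a (ENSMUSG00000031840, chromosome 8, 71207328 to 71211323, plus strand) had 84.5, 59.6 and 84.4 CPM in the syringin libraries, against 170.2, 139 and 162 CPM in the PBS libraries (-1.04 ± 0.15, adjusted p = 0.0186). Rab3c had 55.1, 32.5 and 48.3 CPM, against 101, 95.5 and 95.2 CPM in PBS (-1.10 ± 0.18, adjusted p = 0.0207). Both fell without overlap of the groups, whereas Rab3b, with 10.998, 15.7 and 17.8 CPM in the syringin libraries, against 16.4, 14.2 and 16.03 CPM in the PBS libraries, had a change of -0.07 ± 0.18 (adjusted p = 0.866). Rab3a and Rab3c had log2 fold changes of -1.01 and -0.96 within the libraries with ganglion transcripts, and of -1.33 and -1.55 within the others, in that order of genes.

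Vesicle membrane proteins fell in 3 of 6 cases (Sv2b, Syp and Syngr1), and none rose (group median -0.51). Sv2b, a transporter-like glycoprotein of the vesicle, had 29.6, 18.1 and 21.8 CPM in the syringin libraries, against 62.8, 40.6 and 48.1 CPM in the PBS libraries (-1.12 ± 0.21, adjusted p = 0.0312). Sv2a, its more abundant paralogue, had 200.2, 164 and 178 CPM, against 243, 232 and 246 CPM in PBS, and narrowly missed the threshold without overlap (-0.41 ± 0.10, adjusted p = 0.0526). Syp, synaptophysin, had 215, 140.4 and 176 CPM in the syringin libraries, against 325, 294 and 307 CPM in the PBS libraries (-0.80 ± 0.15, adjusted p = 0.0292). Synpr, synaptoporin, its paralogue, was highest in the 3 libraries with ganglion transcripts. It had 26.2, 5.83 and 17.8 CPM in the syringin libraries, against 28.4, 10.8 and 13.4 CPM in the PBS libraries (-0.08 ± 0.56, adjusted p = 0.954). Within the libraries with ganglion transcripts the change of Synpr was -0.37, and within the others -1.06.

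Syngr1, a synaptogyrin, had 116, 133 and 119.6 CPM in the syringin libraries, against 171, 161 and 161 CPM in the PBS libraries. This was the smallest change that passed (-0.42 ± 0.09, adjusted p = 0.0405), and Syngr1 overlaps the ribosomal protein gene Rpl3 on the opposite strand, which had a change of 0.18 ± 0.08 (adjusted p = 0.233). Syngr3 had 29.3, 19.7 and 29.1 CPM, against 39.1, 42.4 and 37.9 CPM in PBS, without overlap but short of the threshold (-0.61 ± 0.16, adjusted p = 0.068). Sv2b, Syp and Syngr1 had log2 fold changes of -1.29, -0.73 and -0.54 within the libraries with ganglion transcripts, and of -1.29, -1.10 and -0.27 within the others, in that order of genes.

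Of the 4 endocytic genes 3 fell (Sh3gl2, Dnm1 and Amph), and none of the 4 overlapped between groups (group median -0.88). Sh3gl2, endophilin A1, which bends the membrane at the neck of a forming vesicle (ENSMUSG00000028488, chromosome 4, 85123363 to 85317766, plus strand), had 42.8, 35.9 and 39.0 CPM in the syringin libraries, against 88.4, 78.3 and 90.7 CPM in the PBS libraries. It fell by 1.13 on the log2 scale with a standard error of 0.10 (adjusted p = 0.0101). Dnm1, the neuronal dynamin that cuts vesicles free, had 168, 108 and 138 CPM in the syringin libraries, against 322, 254 and 292 CPM in the PBS libraries (-1.07 ± 0.17, adjusted p = 0.0198). Amph, amphiphysin, which brings dynamin to that neck, had 47.7, 37.8 and 47.2 CPM, against 73.3, 70.7 and 70.5 CPM in PBS (-0.69 ± 0.11, adjusted p = 0.0199). Synj1, the lipid phosphatase that strips clathrin from vesicles, had 131, 105 and 108 CPM in the syringin libraries, against 169, 138 and 158 CPM in the PBS libraries, and did not pass (-0.44 ± 0.12, adjusted p = 0.076). Sh3gl2, Dnm1 and Amph had log2 fold changes of -1.11, -1.08 and -0.63 within the libraries with ganglion transcripts, and of -1.24, -1.34 and -0.90 within the others, in that order of genes.

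Paralogues were also set side by side within each library, where scaling between libraries cancels. In 9 of 16 pairs the log2 ratio of counts in all 3 syringin libraries lay on the same side of all 3 PBS libraries. The share over other pairs of genes was not computed. For single genes, all 3 syringin values were below all 3 PBS values in 15.3% of genes tested, and above them in 14.7%. With 3 libraries against 3 the exact two-sided permutation test over 20 splits cannot give less than p = 0.1, so these are descriptions, and over the 16 pairs the smallest adjusted p was 0.178. For Vamp1 over Vamp2 the log2 ratios were 0.28, 0.48 and 0.50 in the syringin libraries, against 1.44, 1.10 and 1.56 in the PBS libraries (exact permutation p = 0.1). Per length, Vamp1 stood at 0.504 ± 0.0402 times the FPKM of Vamp2 in the syringin group, against 0.974 ± 0.153 times in the PBS group (SD, n = 3 each). The difference in log2 ratio was -0.95, with -1.04 within the libraries with ganglion transcripts and -0.85 within the others.

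The ratio of Syt1 to Syt2 ran the other way: its log2 values were -0.46, -1.30 and -0.80 in the syringin libraries, against -1.57, -1.42 and -1.68 in the PBS libraries (difference 0.70). Sv2a over Sv2b was likewise higher in every syringin library, at 2.76, 3.18 and 3.03 against 1.95, 2.51 and 2.36 in PBS (difference 0.72). Rims1 over Rims2 was lower, at -0.29, -0.50 and -0.48 against 0.09, -0.02 and 0.30 in PBS (difference -0.55). The ratios of these pairs did not overlap between groups, so their shifts had to have the same sign within both kinds of library. Their sizes were not always alike. For Syt1 over Syt2 the shift was 0.94 within the libraries with ganglion transcripts and 0.25 within the others. For Sv2a over Sv2b it was 0.94 and 0.74, and for Rims1 over Rims2 -0.48 and -0.64, in that order of libraries.

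Rab3a over Rab3b differed by -0.96, Syt3 over Syt6 by -1.44, Syt4 over Syt11 by 0.59, Unc13a over Unc13c by 0.38 and Cplx1 over Cplx2 by -0.18, all without overlap of the groups. In the other 7 pairs the groups overlapped. Among them Syn1 over Syn2 varied little between libraries, at 0.56, 0.50 and 0.59 in the syringin libraries, against 0.64, 0.46 and 0.48 in the PBS libraries, and Rab3a over Rab3c differed by 0.08. Of the 11 pairs with 1 fallen gene and 1 that did not pass, 7 had ratios that did not overlap, so a call for 1 paralogue alone did not always come with a separation of the ratio.

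**Figure D3:**
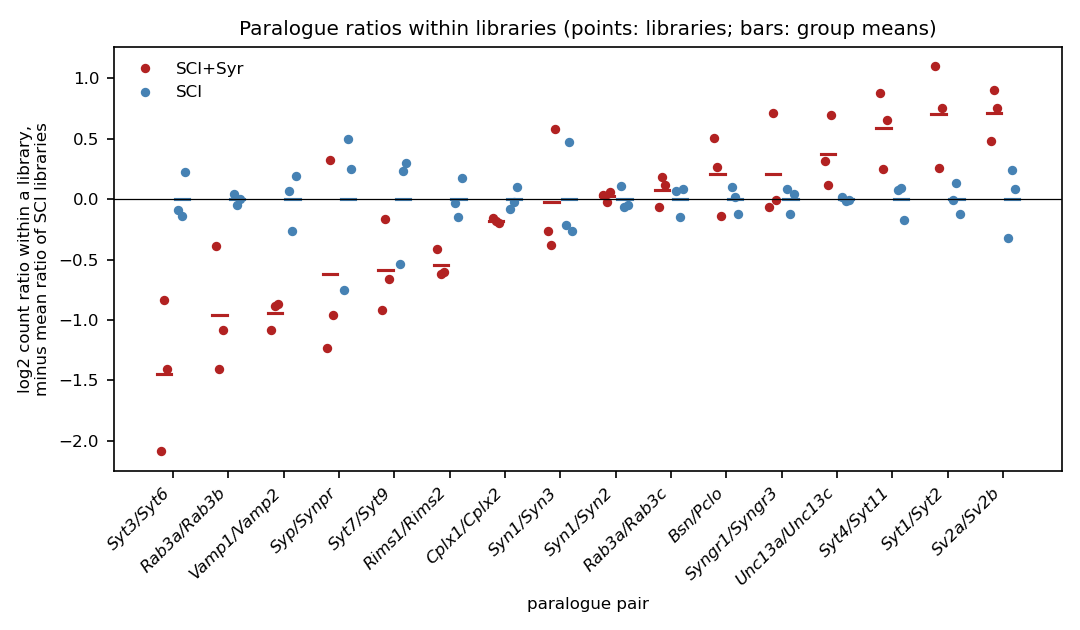
Log2 ratio of the counts of the 16 paralogue pairs within each library, minus the mean ratio of the SCI libraries, ordered by the difference between groups (red SCI+Syr, blue SCI; points are libraries and bars group means, n = 3 each). Mean differences run from -1.44 for Syt3/Syt6 at the left, over -0.95 for Vamp1/Vamp2, to 0.70 for Syt1/Syt2 and 0.72 for Sv2a/Sv2b at the right.

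All 21 fallen genes were lower within the libraries with ganglion transcripts (syringin 1 and 3 against PBS 1). They were also lower within the others (syringin 2 against PBS 2 and 3). In each of the 21, all 3 syringin values lay below all 3 PBS values over the 6 libraries. Their direction within each kind of library follows from that and is no separate check. In both kinds 38 of the 43 genes were lower, beside 34.2% of all genes tested. Values within each kind carry no test, because 1 arm holds a single library. The median log2 fold change of the 43 genes was -0.64 in the first kind and -1.08 in the second, against 0.02 and -0.01 over all genes. The 5 exceptions were Rab3b, Syt4, Syt6, Syt17 and Stx1a. With the mean level of the ganglion markers as a covariate, edgeR called 31 of the 43 genes lower and none higher, with 6.39% of all genes called lower. All 21 fallen genes were among the 31, and the 10 further genes included Syt1, Syt7, Sv2a and Napb.

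**Figure D4:**
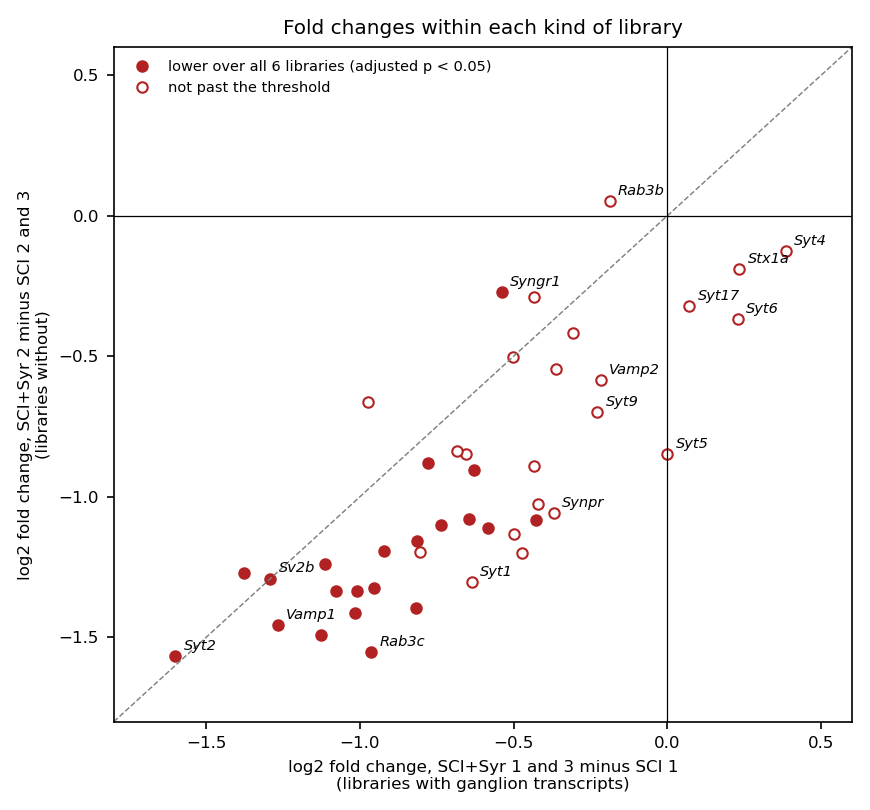
Log2 fold change of each of the 43 genes within the libraries with ganglion transcripts (x axis) and within those without (y axis), SCI+Syr minus SCI, with no error because 1 arm of each holds 1 library; filled points are the 21 genes called over all 6 libraries and the dashed line marks equal values. All filled points lie at lower left, which follows from their groups not overlapping over the 6 libraries. Most points lie under the line, where the fold change is more negative in the libraries without ganglion transcripts.

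Further genes of release and recycling in neurons, from another list chosen with earlier results of these data known, were also lower. Of 34 such genes outside the 43, 11 fell (32.4%, beside 3.39% of all genes tested) and none rose. All 34 fold changes were negative (median -0.65, against 0.01 over all genes). Among those with the smallest p were Rph3a, Svop and Atp6v1g2. Rph3a, the Rab3 effector rabphilin, had 129, 99.0 and 121 CPM in the syringin libraries, against 332, 246 and 335 CPM in the PBS libraries (-1.39 ± 0.15, adjusted p = 0.0114). Svop, a vesicle protein related to SV2, changed by -0.84 ± 0.12 (adjusted p = 0.0187), and Atp6v1g2, a neuronal subunit of the proton pump that acidifies vesicles, by -0.96 ± 0.16 (adjusted p = 0.0207).

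Counterparts that many cell types use for membrane fusion and endocytosis were mostly not called. Of 37 listed, 35 were tested, while Vamp7 and Sypl were not analysed here. Of the 35, 1 fell (2.86%), beside 3.39% of all genes tested, and none rose, beside 1.62%. The median was 0.15, and 26 had positive fold changes. The fallen gene was Snap47, with 121, 98.7 and 122 CPM in the syringin libraries, against 164, 162 and 165 CPM in the PBS libraries (-0.52 ± 0.10, adjusted p = 0.0331). Next by p were Stxbp2 (0.56 ± 0.14, adjusted p = 0.0585), the SNARE regulator of granule release in blood cells, Syngr2 (0.52 ± 0.13, adjusted p = 0.0632), the synaptogyrin of non-neuronal cells, and Picalm (0.30 ± 0.08, adjusted p = 0.0681), a clathrin adaptor. None of these 3 passed. DESeq2 called 1797 of all 22114 genes lower and 1390 higher, and the edgeR fit with the ganglion covariate 1412 and 1131. In each of these fits 2 of the 35 were called lower and 5 higher, the 3 among the higher ones. Each of the 3 had all 3 syringin values above all 3 PBS values, as did 11 of the 35 genes and 14.7% of all genes tested.

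Markers of some cell types were lower in the syringin group, as the vesicle genes were, and those of others were not. General neuronal markers fell in 6 of 12 cases with none higher (median -0.70, against -0.70 for the 43 genes). Motor neuron markers fell in 3 of 6 cases (Chat, Slc18a3 and Slc5a7, which make, load and retrieve acetylcholine or its choline) with a median of -1.36. The 6 markers summed to 121, 39.0 and 74.1 CPM in the syringin libraries, against 194, 75.8 and 103 CPM in the PBS libraries. These sums overlapped between the groups, and the highest sum of each group was in a library with ganglion transcripts. Markers of excitatory and inhibitory neurons fell in 2 of 7 cases (Slc32a1 and Slc6a5, transporters of inhibitory neurons), with a median of -0.81. Only 5 of these 7 fold changes were negative, and the highest was 0.90. Summed macrophage and microglia markers were 1943, 4786 and 2772 CPM in the syringin libraries, against 1404, 1438 and 1456 CPM in the PBS libraries, and 3 of the 8 rose (Msr1, Lgals3 and Arg1). Syringin library 2, the lowest library for 36 of the 43 vesicle genes, was the highest of the 6 for the macrophage sum and the lowest for the neuronal sum. Summed astrocyte markers were 4744, 6495 and 6582 CPM in the syringin libraries, against 7143, 8658 and 8265 CPM in the PBS libraries, and 2 of the 7 fell (Gjb6 and Slc1a2; median -0.56). Schwann cell markers fell in 1 of 5 cases (Ncmap), with a median of -2.06. No ganglion neuron marker passed (0 of 10), and their median was 0.39. Oligodendrocyte markers summed to 17889, 17871 and 24520.1 CPM, against 18794, 20518 and 20526 CPM in PBS, with overlap, and none of these markers passed. The part of these cell types in the fall of the vesicle genes was not tested.

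Promoter sequence was read for the genes that the RefSeq table (GRCm38.p6) holds, 32 of the 43 genes with 43 windows of the 250 bases before the start. The sequences show 3 fallen genes, chosen for their strong calls or motif matches, and Stx1a, which did not pass, for comparison, each 5′ to 3′ on the gene's strand, with motif matches in capitals. The windows are chr6:125215331-125215580 (plus strand) for Vamp1, chr4:85205206-85205455 (plus strand) for Sh3gl2, chrX:20920919-20921168 (minus strand) for Syn1 and chr5:135023232-135023481 (plus strand) for Stx1a.
Vamp1: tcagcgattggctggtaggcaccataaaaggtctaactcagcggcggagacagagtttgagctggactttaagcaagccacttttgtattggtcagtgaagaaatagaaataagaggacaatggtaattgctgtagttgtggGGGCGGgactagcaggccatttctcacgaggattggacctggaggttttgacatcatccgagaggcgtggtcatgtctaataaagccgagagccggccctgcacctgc
Sh3gl2: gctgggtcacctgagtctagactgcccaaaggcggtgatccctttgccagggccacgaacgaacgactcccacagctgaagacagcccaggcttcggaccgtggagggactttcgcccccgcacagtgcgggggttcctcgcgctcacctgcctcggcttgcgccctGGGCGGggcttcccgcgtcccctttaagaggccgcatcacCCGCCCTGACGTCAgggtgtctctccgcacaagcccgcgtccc
Syn1: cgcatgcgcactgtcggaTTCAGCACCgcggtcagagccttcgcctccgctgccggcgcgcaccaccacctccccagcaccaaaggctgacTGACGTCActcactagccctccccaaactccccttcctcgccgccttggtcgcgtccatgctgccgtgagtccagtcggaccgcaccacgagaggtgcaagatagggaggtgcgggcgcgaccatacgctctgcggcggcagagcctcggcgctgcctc
Stx1a: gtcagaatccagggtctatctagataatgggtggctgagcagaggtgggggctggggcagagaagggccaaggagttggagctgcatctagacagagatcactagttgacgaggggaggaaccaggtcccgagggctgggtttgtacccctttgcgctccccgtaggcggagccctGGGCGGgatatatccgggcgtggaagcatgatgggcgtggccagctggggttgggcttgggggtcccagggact

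Both strands were searched for the cyclic AMP response element TGACGTCA, for the left part TTCAGCACC and the right part GGACAGC of the element bound by REST, a repressor of neuronal genes in other cells, and for the GC box GGGCGG. The cyclic AMP element was present in the windows of Sh3gl2 and Syn1, 2 of 43 windows (4.65%), against 1.55% of all 32851 windows of that length. In Sh3gl2 it adjoins a GC box read on the other strand. The left REST part was found in Syn1 alone among the 43 genes (1 window, against 0.301% of all windows), and the right part in Syt6 alone (3 windows, against 5.28%). A GC box lay in 25 of the 43 windows (58.1%), against 32.7% of all windows. It was present for 12 of the 19 fallen genes with a window and for 10 of the 13 others, so this motif did not follow the call. A match is a run of letters and says nothing of binding.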

How the data were processed

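RNA of injured mouse spinal cord was sequenced from polyadenylated transcripts with a stranded TruSeq kit, per the labels' protocols. The submitters' processing notes name HISAT2, StringTie, GRCm38 and mm10, with no versions or roles. The authors deposited 1 table of estimated counts and of FPKM values (scaled by transcript length and library size) per gene and library. The estimated counts were whole numbers, so rounding changed nothing. Gene positions are those of the deposited table. These positions are mostly not those of GRCm38. Only 717 of the 34804 IDs also in GENCODE M21 (GRCm38), and 0 of the 43 genes, start at the same base there. Of these IDs 30210 span the same length in both, so most are shifted. The build of the deposited table was not identified and stays uncertain.

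Computed from the counts: trimmed mean of M-values (TMM) factors, filterByExpr (minimum count 10, minimum total 15), edgeR 4.0.16's quasi-likelihood test with robust estimation in R 4.3.3, treatment as the only term, two-sided, Benjamini-Hochberg adjusted over 22114 genes, threshold 0.05. A standard error is |log2 fold change| divided by √F, and the common biological coefficient of variation came to 24.9%. Paralogue ratios used counts + 1. Alternatives were other scaling, no filter, DESeq2 1.42.0, limma 3.58.1 (voom, and log2 of FPKM + 0.1 or + 1 for genes with a mean of 0.1 FPKM), counts divided by 4, a replicate block, a ganglion covariate, a correction for length and GC (longest GENCODE transcript), and each library left out. DESeq2 and limma-voom without PBS library 3, and the values within each kind of library, were chosen after seeing the data. The edgeR, DESeq2, voom and length steps were also run on simulated counts, with the outcome not reported here. Those counts were drawn independently, without the excess of multiples of 4 or the ganglion transcripts of some libraries. No 2 libraries of a group held identical counts, and every pair differed beyond counting noise (chi-square per degree of freedom at least 23.0). The p-values of edgeR set the difference between groups against the spread between libraries of a group, with n = 3 in each group.

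The members and lists were chosen with earlier results of these data known. The rule for named genes took the 12 members with the smallest p, both genes of each pair with 1 called gene, and 4 genes of each of the other release lists by p, of which 1 is not reported here. Snap25, Cplx2, Nsf, Syt13 and the rest of the members are given so that all are accounted for. Promoters were chosen after their values were seen. Python 3.11.15, pandas 2.3.3 and matplotlib 3.10.9 were used for tables and figures.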

Additional observations from a re-analysis of the deposited data

How the results depend on the processing

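The count of 21 fallen genes stayed within 1.5 times under RLE scaling (21), no composition factors (21), no low-count filter (21), counts divided by 4 (23), limma-voom (22), DESeq2 (31), limma on log2(FPKM + 0.1) or + 1 (18 each), the length and GC correction (19), the ganglion covariate (31) and DESeq2 on 5 libraries (25). It was 0 with limma-voom on 5 libraries without PBS library 3, and 0 to 30 with 1 library left out. The 21 genes were all called by DESeq2, voom, RLE and the replicate block, while Snap25 and Pclo were lost with FPKM and with the length and GC correction, Syt13 with FPKM and Syngr1 with the correction. Nothing among the 43 was called higher in any fit.

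Over all genes the count of 1108 became 3187 (DESeq2), 2543 (ganglion covariate), 2557 (replicate block), 691 and 689 (FPKM + 0.1 and + 1), 0 (voom on 5 libraries) and 0 to 1944 with 1 library left out. Higher genes were 32.4% of the calls, and 43.6% with DESeq2, 44.5% with the ganglion covariate and 44.8% with the length and GC correction. The 11 other neuronal release genes became 21, 19 and 20 with DESeq2, the ganglion covariate and the replicate block, 6 with either FPKM offset, 7 with the length and GC correction, 0 with voom on 5 libraries and 0 to 17 with 1 library left out. The 1 called counterpart (Snap47) was lower, and most calls added elsewhere were higher: the count became 7 with DESeq2 and 7 with the ganglion covariate (2 lower and 5 higher each), 5 with the replicate block (2 lower, 3 higher), 2 with the length and GC correction and 2 with DESeq2 on 5 libraries (1 lower, 1 higher each), 0 with voom on 5 libraries and 0 to 4 with 1 library left out (the 4 were 2 lower, 2 higher). The 9 separated paralogue pairs were 9 with FPKM or counts + 10.

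Some uncalled values changed sign when 1 library was left out. Given as the value over 6 libraries and the range with 1 left out, these fold changes were Syt5 (-0.17, -0.39 to 0.088), Syt9 (-0.04, -0.44 to 0.31), Syt12 (-0.18, -0.60 to 0.070), Rab3b (-0.07, -0.23 to 0.10), Synpr (-0.08, -0.57 to 0.46), and these ratio differences were Syn1/Syn3 (-0.02, -0.32 to 0.21), Syngr1/Syngr3 (0.21, -0.037 to 0.35), Syn1/Syn2 (0.02, -0.0072 to 0.080). Synpr was 0.012 with the length and GC correction.

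Whether the replicate numbers mark pairs of libraries is not known. Deviations from the group means of same-numbered libraries correlated at 0.29, 0.12 and 0.05, and those of differently numbered libraries at -0.23 to 0.14. With the replicate block 31 of the 43 genes were called lower. The cause of these changes was not tested. Counting error is understated if 1 fragment adds 4 counts, and every edgeR call is lost when PBS library 3 is left out, although the fold changes of the 21 genes shifted by 0.22 at the largest.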
